A study of Mus musculus with 10 samples.

Results

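The 33 macrophage and myeloid marker genes described here were taken from a deposited table of 32889 genes by gene symbol. The choice followed no cutoff on a measured value, but it was made with earlier results of these data known. All 33 were found, and all 33 passed the filter on low counts that left 19676 genes. RNA from brown adipose tissue, a fat depot that burns lipid for heat, was sequenced in 10 libraries of wild-type C57BL/6J mice. Of these, 3 came from obesity-prone mice on a high-fat diet, 3 from obesity-resistant mice on the same high-fat diet, and 4 from control mice on regular chow. The submitters' labels give no age, sex or length of feeding, and do not say how prone and resistant mice were told apart or whether animals were pooled.

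Macrophages are tissue phagocytes that descend from embryonic precursors or from blood monocytes. They depend on CSF1 receptor signalling and on the transcription factor Spi1 (PU.1). They take up dead cells and lipoproteins through scavenger receptors, opsonised targets through Fc receptors, and complement-coated material through complement receptors. In mouse brown fat, resident macrophages have been linked to nerve supply and to the clearing of debris, and in obese white fat macrophages gather around dying adipocytes. Many of the markers are shared with monocytes, neutrophils and dendritic cells, so a level in whole tissue belongs to no one cell type. In such bulk RNA, fewer cells of a type and less RNA per cell cannot be told apart.

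The libraries held 35583997 to 37327770 counts. Ucp1, which uncouples respiration for heat and marks brown adipocytes, lay between 2882 and 10270 CPM (counts scaled to a common library size), with its lowest value in obesity-prone library 3. Skeletal muscle and red cell transcripts differed widely within groups. The summed CPM of 12 muscle genes ranged from 5.11 to 73.6 in obesity-prone, 19.2 to 749 in obesity-resistant and 1.79 to 877 in control libraries, and their part in the results below was not tested beyond a fit with the muscle score as a covariate. No batch is given. Whether each library stands for its own animal is not stated, so the p-values cover the spread between samples, which may be technical.

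Most of the 33 markers moved together from library to library, and obesity-prone library 3 stood at the top. It held the highest level of all 10 libraries for 28 of 33 members, and obesity-prone library 2 was the lowest of its group for 31. Summed over the members, the 3 obesity-prone libraries held 602, 314 and 878 CPM, the obesity-resistant libraries 214, 272 and 228 CPM, and the control libraries 283, 284, 212 and 390 CPM. Obesity-prone libraries 1 and 3 therefore lay above every other library, while obesity-prone library 2 lay below control library 4. Gene by gene, obesity-prone libraries 1 and 3 both exceeded every control for 28 members, obesity-prone library 2 was below control library 4 for 29, and it was above the mean of the other 3 controls for 25. Among controls, library 4 was the highest for 26 members and library 3 the lowest for 24.

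**Figure D1:**
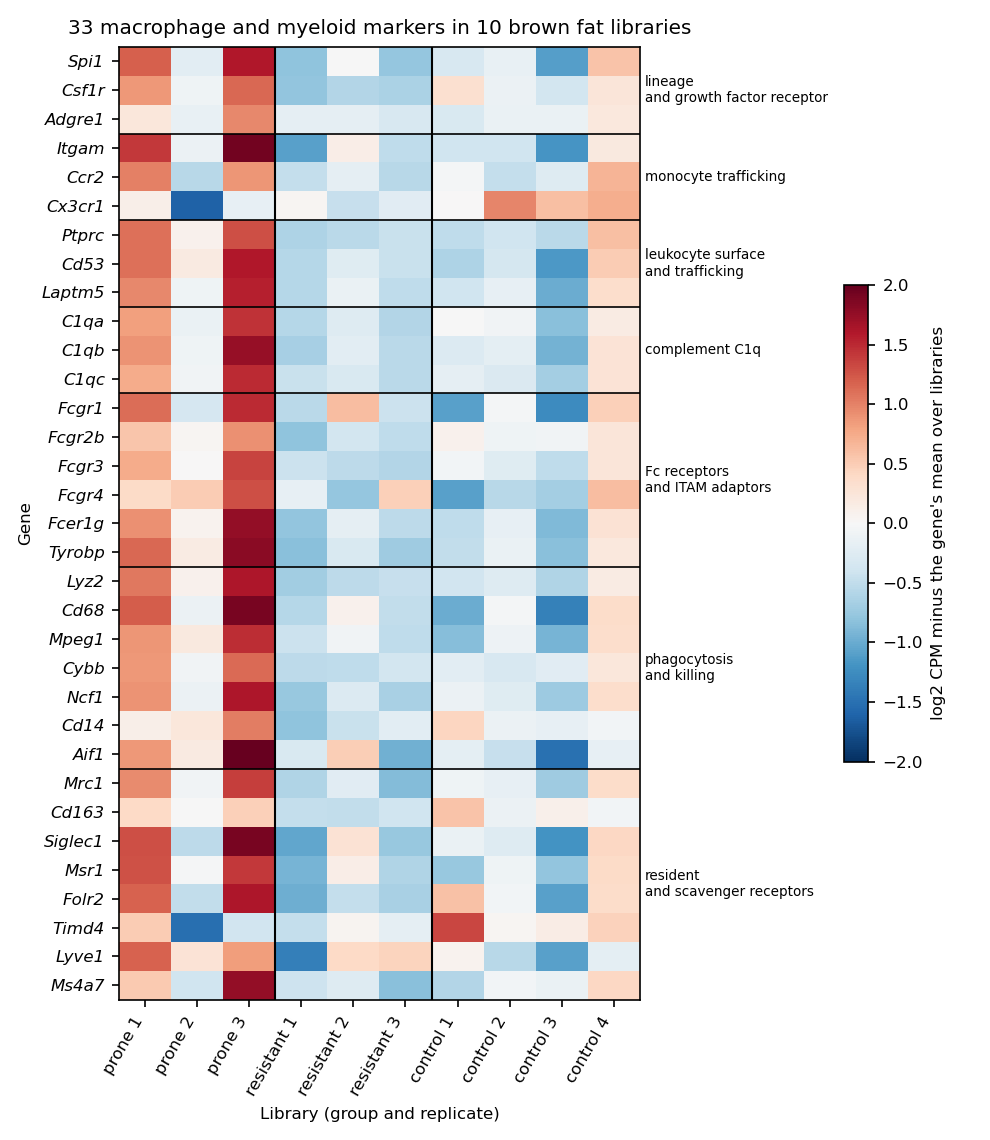
Level of each of the 33 members (down the page, grouped by role) in each of the 10 libraries (across), as log2 CPM minus the gene's mean over libraries; colours saturate at 2 in either direction. Obesity-prone library 3 was the highest of all libraries for 28 members, and Cx3cr1, Timd4 and Cd163 depart from the shared pattern.

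Obesity-prone libraries were first set against chow controls. Lyz2 (lysozyme of macrophages and neutrophils) and Tyrobp (DAP12, the adaptor that carries an activating ITAM motif for many myeloid receptors) rose, and no member fell. In edgeR's quasi-likelihood test with Benjamini-Hochberg adjustment over all genes, 2 of 33 members were thus called at an adjusted p below 0.05, beside 7.0% of all genes called (3.71% called higher and 3.29% lower). The member share, 6.06%, was close to that of all genes, so the count of calls does not set the members apart. The fold changes of the other members mostly pointed the same way: 31 of 33 were above 0, beside 50.6% of all genes, and the median member log2 fold change was 1.05, beside 0.00 for all genes. At an unadjusted p below 0.05, 26 members were higher, beside 14.9% of all genes, and 1 was lower, beside 13.2%. Only 2 members, Aif1 and Lyve1, had obesity-prone libraries wholly above the controls, beside 9.66% of all genes, and 0 lay wholly below, beside 10.6%.

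Lyz2 (gene 17105, chr10:117277541-117282272 in GRCm38.p6) had 92.5, 47.3 and 136 CPM in obesity-prone libraries, 27.5, 31.2 and 32.4 CPM in obesity-resistant libraries, and 34.1, 37.3, 29.5 and 49.8 CPM in control libraries. All obesity-prone libraries except library 2 exceeded every control, and library 2 fell just short of control library 4. Its log2 fold change against control was 1.29 ± 0.29 (SE, edgeR adjusted p = 0.033). RSEM split some reads of Lyz2 with other transcripts, since its counts were not whole in all 10 libraries.

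Tyrobp (gene 22177, chr7:30413782-30417582) had 10.2, 5.14 and 15.9 CPM in obesity-prone libraries, 2.56, 3.71 and 2.80 CPM in obesity-resistant libraries, and 3.24, 4.17, 2.57 and 5.30 CPM in control libraries. Here too obesity-prone library 2 lay within the control range and the other two lay above it. Its log2 fold change was 1.45 ± 0.35 (edgeR adjusted p = 0.040).

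Which members passed depended on single libraries. Without obesity-prone library 2, 25 members rose, beside 10.8% of all genes called in that fit, and without control library 4, 17 rose, beside 15.6%. Without any one of obesity-prone libraries 1 and 3, control libraries 1 to 3 or the 3 obesity-resistant libraries, which only inform the spread, 0 members were called. Those fits called few genes of any kind, 0.389% to 3.75% of all genes. Without both obesity-prone library 3 and control library 4, 6 members rose (Ptprc, Cd53, Fcer1g, Tyrobp, Lyz2 and Mpeg1), beside 13.3% of all genes called. DESeq2, which estimates the spread differently, called 20 members higher, beside 15.9% of all genes called, while a fit of only the 2 groups compared called 0, beside 0.344%. The median member log2 fold change lay between 0.71 (without obesity-prone library 3) and 1.34 (without obesity-prone library 2) over the fits that left out one library.

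**Figure D2:**
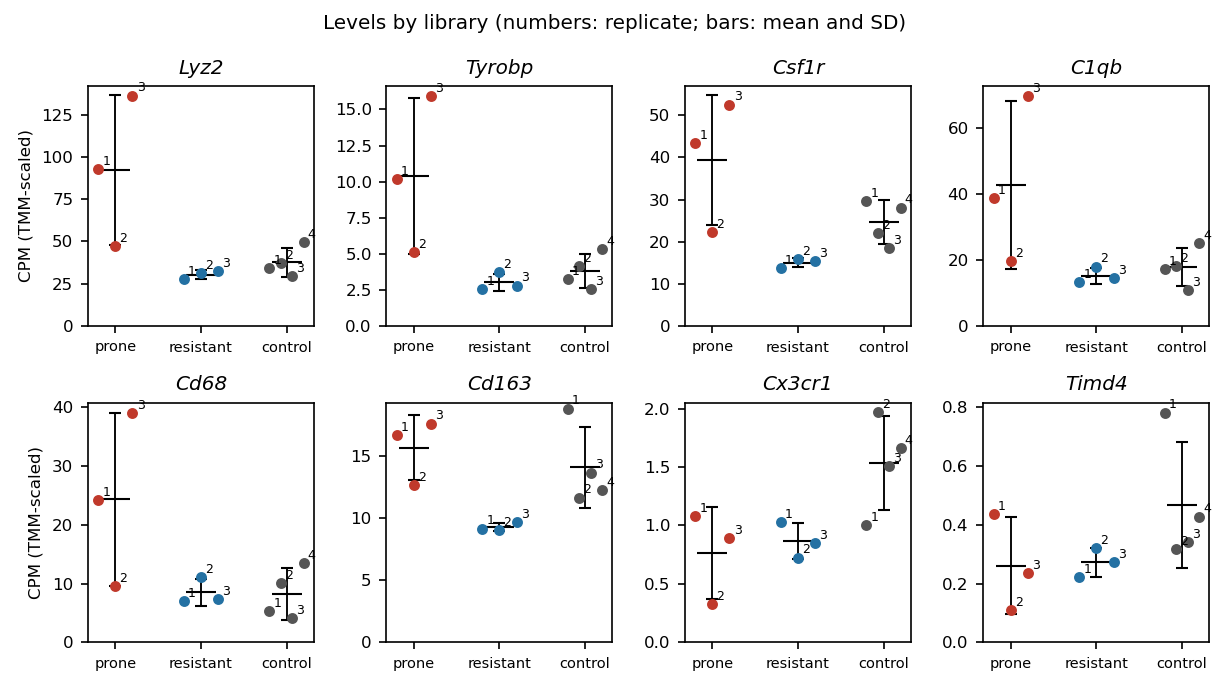
CPM of 8 members in each library, with the group mean and SD as bars and the replicate number beside each point; each panel starts at 0. For Lyz2, Tyrobp, C1qb and Cd68 the obesity-prone group was spread widely, with library 3 highest and library 2 lowest, whereas Cx3cr1 and Timd4 were highest in control libraries.

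Among the lineage genes, Spi1, the master regulator of myeloid fate, had 7.53, 2.83 and 9.98 CPM in obesity-prone and 2.63, 2.98, 1.54 and 4.87 CPM in control libraries. The groups overlapped through obesity-prone library 2, and the log2 fold change of 1.17 ± 0.44 did not pass (edgeR adjusted p = 0.12). Csf1r, the receptor for CSF1 and IL-34 that macrophages need for survival, averaged 39.4 ± 15.5 CPM in obesity-prone and 24.5 ± 5.23 CPM in control libraries (SD, n = 3 and 4), with a log2 fold change of 0.68 (edgeR adjusted p = 0.12). Itgam (CD11b, the integrin chain of complement receptor 3) came close to the threshold. It had 19.0, 6.58 and 27.2 CPM in obesity-prone libraries, against 5.42, 5.42, 3.14 and 8.17 CPM in control libraries, a log2 fold change of 1.67 ± 0.46 (edgeR adjusted p = 0.056).

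The chemokine receptors differed from each other. Ccr2, which draws monocytes out of the marrow toward CCL2, had 5.78, 1.958 and 5.29 CPM in obesity-prone and 2.80, 2.06, 2.39 and 4.58 CPM in control libraries (log2 fold change 0.55, edgeR adjusted p = 0.35). Cx3cr1, the fractalkine receptor of patrolling monocytes and some resident macrophages, had 1.08, 0.326 and 0.895 CPM in obesity-prone libraries, 1.03, 0.725 and 0.850 CPM in obesity-resistant libraries, and 1.01, 1.97, 1.51 and 1.66 CPM in control libraries. Both groups on the high-fat diet thus sat at or below most controls, but the log2 fold change of obesity-prone against control libraries, -0.99 ± 0.37, did not pass (edgeR adjusted p = 0.12).

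Of the leukocyte surface genes, Ptprc (CD45, the phosphatase found on all white blood cells) had 22.6, 11.2 and 25.8 CPM in obesity-prone libraries, against 7.41, 7.99, 7.24 and 16.01 CPM in control libraries. Control library 4 alone reached into the obesity-prone range. Ptprc, the tetraspanin Cd53 and the lysosomal membrane protein Laptm5 had log2 fold changes of 1.04, 1.34 and 1.18 and edgeR adjusted p of 0.075, 0.061 and 0.077.

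The 3 chains of C1q, the recognition unit of the classical complement pathway, are made largely by macrophages and lie side by side at chr4:136880126-136898844. C1qb had 38.7, 19.5 and 69.6 CPM in obesity-prone libraries and 17.2, 18.1, 10.8 and 25.1 CPM in control libraries (log2 fold change 1.26 ± 0.38, edgeR adjusted p = 0.069). C1qa and C1qc had log2 fold changes of 0.99 and 1.03 (edgeR adjusted p = 0.085 and 0.070). The chains kept near to one ratio: per length, on the deposited FPKM scale, C1qc was 0.839 to 1.09 times C1qa over the 10 libraries and C1qb 1.01 to 1.49 times C1qa, with the highest C1qb ratio in obesity-prone library 3.

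All 6 genes of Fc receptors and their signalling adaptors had a fold change above 0, and Tyrobp alone passed. Fcer1g, the gamma chain that activating Fc receptors require, had 11.3, 6.31 and 20.3 CPM in obesity-prone and 4.22, 5.33, 3.25 and 7.34 CPM in control libraries (log2 fold change 1.33 ± 0.37, edgeR adjusted p = 0.056). The activating receptors Fcgr1, Fcgr3 and Fcgr4 had log2 fold changes of 1.24, 0.91 and 1.05, and the inhibitory receptor Fcgr2b one of 0.50 (edgeR adjusted p = 0.15, 0.066, 0.15 and 0.14). Fcgr2b, Fcgr3 and Fcgr4 are similar genes close together on chromosome 1, and counts of Fcgr2b and Fcgr3 were not whole in 5 libraries each, so their split is uncertain. The ratio of Fcgr3 to Fcgr2b on the FPKM scale ran from 1.81 to 2.56 in obesity-prone, 1.65 to 2.43 in obesity-resistant and 1.41 to 1.90 in control libraries.

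Genes of phagocytosis and killing also stood higher, with only Lyz2 past the threshold. Cd68, a glycoprotein of late endosomes, had 24.2, 9.63 and 39.0 CPM in obesity-prone and 5.25, 10.1, 4.10 and 13.5 CPM in control libraries (log2 fold change 1.56 ± 0.49, edgeR adjusted p = 0.075). Mpeg1 (perforin-2, which forms pores in engulfed bacteria) had a log2 fold change of 1.23 (adjusted p = 0.058). The oxidase subunits Cybb (gp91phox, the catalytic chain) and Ncf1 (p47phox, its cytosolic organiser) had 0.84 and 1.09 (adjusted p = 0.062 and 0.089), all from edgeR. Cd14, the co-receptor for bacterial lipopolysaccharide, had 2.71, 2.91 and 5.05 CPM in obesity-prone libraries, against 3.35, 2.29, 2.22 and 2.38 CPM in control libraries. Only control library 1 reached into the obesity-prone range, and the test did not pass (log2 fold change 0.47, edgeR adjusted p = 0.26). Aif1 (IBA1, an actin-binding protein) was low but did not overlap, at 0.877, 0.544 and 1.95 CPM in obesity-prone libraries, against 0.419, 0.348, 0.171 and 0.428 CPM in control libraries (log2 fold change 1.71 ± 0.49, edgeR adjusted p = 0.061).

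The scavenger receptors and resident macrophage markers differed among themselves, with log2 fold changes from -0.83 to 1.39, and none of the 8 passed. Mrc1 (CD206, the mannose receptor) had 53.2, 26.2 and 72.0 CPM in obesity-prone and 25.8, 24.6, 16.8 and 35.6 CPM in control libraries (log2 fold change 0.97, edgeR adjusted p = 0.090). Siglec1 (sialoadhesin), Msr1 (a receptor for modified lipoproteins), Folr2 (a folate receptor) and Ms4a7 (a membrane protein of macrophages) had log2 fold changes of 1.39, 1.25, 0.93 and 0.95, with edgeR adjusted p between 0.082 and 0.22. Cd163, the receptor for haemoglobin bound to haptoglobin, had 16.7, 12.7 and 17.6 CPM in obesity-prone libraries, against 18.8, 11.7, 13.7 and 12.3 CPM in control libraries. These ranges were nearly the same, and the log2 fold change was 0.15 (95% interval -0.23 to 0.53, edgeR adjusted p = 0.60).

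Timd4, which binds phosphatidylserine on dying cells, was barely detected, at 0.438, 0.109 and 0.237 CPM in obesity-prone libraries and 0.783, 0.319, 0.342 and 0.428 CPM in control libraries. With so few reads its log2 fold change of -0.83 was imprecise (SE 0.48, edgeR adjusted p = 0.28). Lyve1, a hyaluronan receptor of perivascular macrophages and of lymphatic endothelium, had 11.2, 6.01 and 8.90 CPM in obesity-prone libraries, 1.92, 6.53 and 6.75 CPM in obesity-resistant libraries, and 5.23, 3.36, 2.34 and 4.31 CPM in control libraries. Every obesity-prone library lay above every control, with a log2 fold change of 1.19 ± 0.41 (edgeR adjusted p = 0.095). Flt4, a receptor of lymphatic endothelium outside the members, rose beside it (23.0 ± 0.783 CPM in obesity-prone and 15.5 ± 2.33 CPM in control libraries, log2 fold change 0.57, edgeR adjusted p = 0.026). In obesity-resistant libraries Flt4 had 22.9, 19.9 and 22.7 CPM. Prox1, also a gene of lymphatic endothelium, was low and was not called (1.14 ± 0.112 CPM in obesity-prone and 0.750 ± 0.258 CPM in control libraries, log2 fold change 0.60, edgeR adjusted p = 0.36). The part of lymphatic vessels in the Lyve1 level was not tested.

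**Figure D3:**
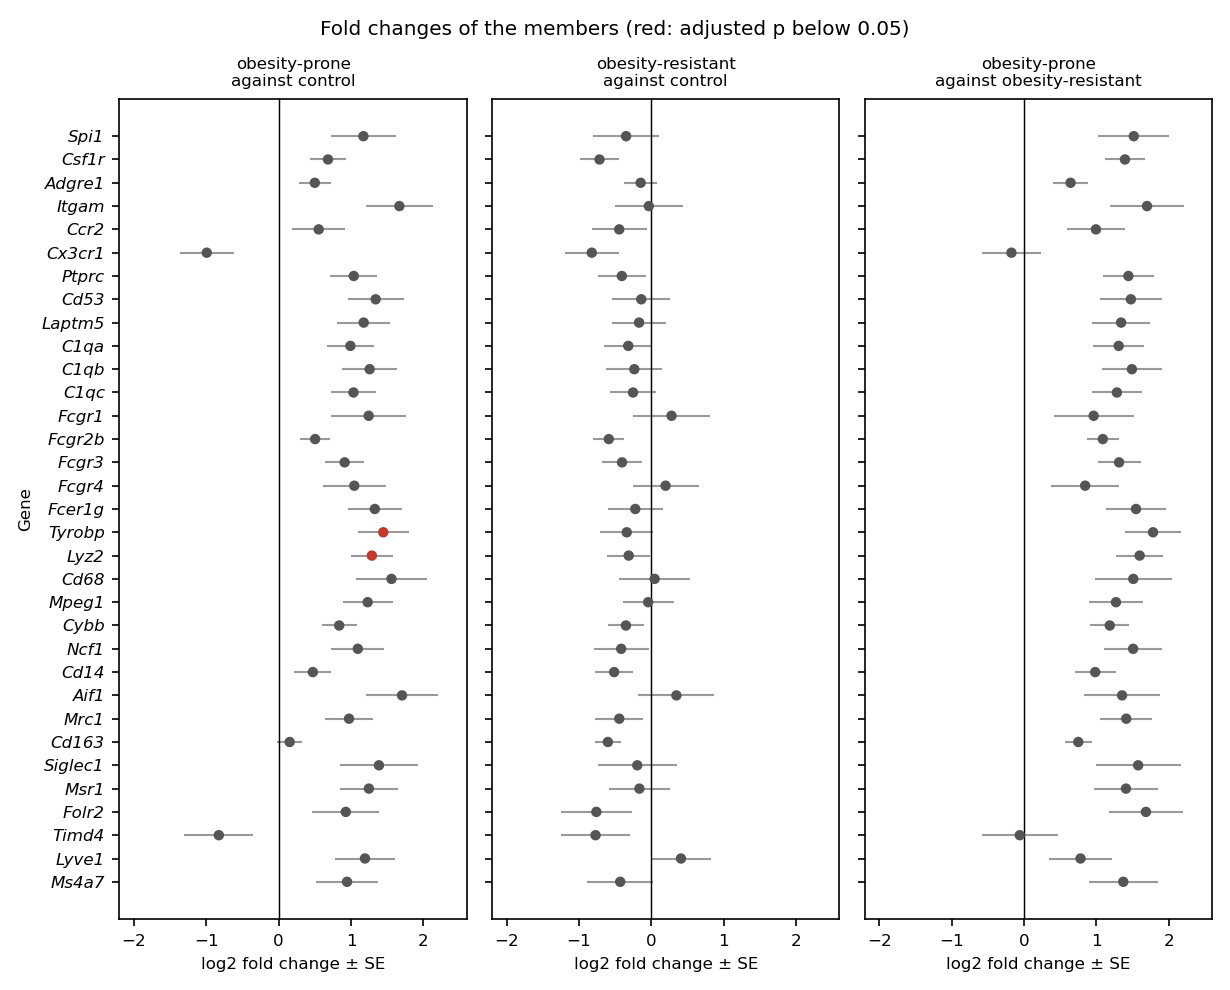
Log2 fold change (across, with its SE as a bar) of each member (down the page) in the 3 comparisons, with red points for an edgeR adjusted p below 0.05. Only Lyz2 and Tyrobp in obesity-prone against control libraries are red, and Cx3cr1 and Timd4 lie below 0 in all 3 panels.

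Because most members moved together, the start regions of their genes were read from RefSeq promoter sequences of GRCm38.p6 (250 bases before to 50 after each start). The table held 24 of the 33 members. The core of the binding motif of PU.1, the protein of Spi1, was searched as GAGGAA on both strands (TTCCTC on the other), and 14 of the 24 member genes held it (58.3%), beside 31.3% of 27025 genes. The longer GAGGAAGT (ACTTCCTC on the other strand), which contains the shorter one, was in 3 of 24 members (12.5%), beside 3.69% of all genes. Those 3 are shown because they carry the longer match, in capitals. On the gene's strand it begins 24 bases before the start in Fcgr4, 6 bases after it in Cd53 and 195 bases before the start used by the table in C1qc. The windows lie at chr1:171018876-171018935 on the plus strand, and at chr3:106790120-106790169 and chr4:136893076-136893135 on the minus strand.
Fcgr4: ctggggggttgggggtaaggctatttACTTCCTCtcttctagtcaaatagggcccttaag
Cd53: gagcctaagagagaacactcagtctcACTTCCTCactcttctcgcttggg
C1qc: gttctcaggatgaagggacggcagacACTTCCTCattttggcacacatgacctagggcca
Lyz2, the member with the most counts and one of the 2 that rose, is shown for contrast with the 250 bases before its start, chr10:117282273-117282522 on the minus strand. It holds 0 matches to GAGGAA. It holds 5 of the bare core GGAA (TTCC on the other strand), in capitals, a run of letters that 96.5% of all genes hold in their windows.
Lyz2: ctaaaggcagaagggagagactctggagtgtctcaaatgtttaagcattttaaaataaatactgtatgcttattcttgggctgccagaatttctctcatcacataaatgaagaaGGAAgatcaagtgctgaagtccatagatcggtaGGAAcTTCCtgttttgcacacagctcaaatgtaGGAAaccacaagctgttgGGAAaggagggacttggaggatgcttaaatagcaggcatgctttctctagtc
A match describes letters in the sequence and shows no binding, and PU.1 itself was not measured on these regions.

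When obesity-resistant libraries, on the same high-fat diet, were set against chow controls, no member rose or fell. edgeR called 0 of 33 members, beside 0.142% of all genes, and DESeq2 called 1, Cd163, lower, beside 5.78% of all genes called by DESeq2. The median member log2 fold change was -0.32, beside -0.01 for all genes, and 5 members were above 0, beside 49.1% of all genes. At an unadjusted p below 0.05, 3 members were lower, beside 9.03% of all genes, and 0 were higher, beside 8.96%. The groups did not overlap for 5 members, all lower in obesity-resistant libraries (Csf1r, Fcgr2b, Cybb, Cd14 and Cd163), beside 9.71% of all genes lower without overlap and 10.5% higher. Deviations from group means over all genes correlated weakly between resistant and control libraries of the same number (0.121 to 0.187). Libraries of different number were not compared, so this does not show that the numbers pair them. With the replicate number as a block edgeR called 382 genes (1.94%) and 0 members. Under this block the median member log2 fold change was -0.07, and 11 members were above 0. Without control library 4, the median member log2 fold change was -0.07.

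Cd163 had 9.18, 9.08 and 9.68 CPM in obesity-resistant libraries, against 18.8, 11.7, 13.7 and 12.3 CPM in control libraries. Its 3 obesity-resistant values lay close together and below every control (log2 fold change -0.60 ± 0.18, edgeR adjusted p = 0.13). Csf1r had 13.7, 15.8 and 15.3 CPM in obesity-resistant libraries, against 29.7, 22.0, 18.5 and 28.1 CPM in control libraries, again with no overlap (log2 fold change -0.72 ± 0.26, edgeR adjusted p = 0.20). Fcgr2b had 2.14, 2.90 and 2.63 CPM in obesity-resistant libraries, against 3.94, 3.50, 3.53 and 4.39 CPM in control libraries (log2 fold change -0.59, edgeR adjusted p = 0.19). Lyz2 and Tyrobp, the 2 genes that rose in obesity-prone libraries, had log2 fold changes of -0.31 and -0.34 (edgeR adjusted p = 0.62 and 0.67). This comparison and the one before share the control libraries.

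Between obesity-prone and obesity-resistant libraries, which were on the same diet, edgeR called 0 of 33 members and 0 genes in all (0.00% called), while DESeq2 called 20 members higher, beside 2.87% of all genes (565 genes). The median log2 fold change was 1.36 for the members, beside -0.01 for all genes. At an unadjusted p below 0.05, 28 members were higher, beside 9.78% of all genes, and 0 were lower, beside 5.62%. The groups did not overlap for 19 members, each higher in obesity-prone libraries, beside 9.99% of all genes higher without overlap and 9.75% lower. The fold change was above 0 for 31 members, beside 48.9% of all genes. The lowest edgeR adjusted p among the members was 0.23. Without obesity-prone library 2, edgeR called 871 genes, or 4.31%, with 23 members among them.

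The values of the obesity-resistant libraries lay in a narrow band, so even obesity-prone library 2 stood above them for those 19 members. Lyz2 averaged 92.0 ± 44.4 CPM in obesity-prone and 30.3 ± 2.57 CPM in obesity-resistant libraries (SD, n = 3 each, log2 fold change 1.60, edgeR adjusted p = 0.23). Csf1r had 43.3, 22.3 and 52.5 CPM in obesity-prone libraries, against 13.7, 15.8 and 15.3 CPM in obesity-resistant libraries (log2 fold change 1.40 ± 0.28, edgeR adjusted p = 0.23). For Fcgr2b the values were 5.49, 3.83 and 7.03 CPM in obesity-prone and 2.14, 2.90 and 2.63 CPM in obesity-resistant libraries (log2 fold change 1.09, edgeR adjusted p = 0.23). Cd163 differed by a log2 fold change of 0.75 ± 0.19 (edgeR adjusted p = 0.23). Cx3cr1 and Timd4 did not follow, with log2 fold changes of -0.17 (95% interval -1.06 to 0.72) and -0.06 (-1.22 to 1.11).

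The share of each gene in the sum of the 33 members varied by gene, from 1.23-fold between the lowest and highest library for C1qc to 10.2-fold for the sparse Timd4. C1qa took 5.21 ± 0.193% of the summed member CPM in obesity-prone, 5.33 ± 0.192% in obesity-resistant and 5.39 ± 0.714% in control libraries (SD, n = 3, 3 and 4). Lyz2 took 15.4, 15.1 and 15.5% in obesity-prone libraries, 12.8, 11.4 and 14.2% in obesity-resistant libraries, and 12.05, 13.1, 13.9 and 12.7% in control libraries. Its share was higher in each obesity-prone library, library 2 included, than in any other. Tyrobp took 1.69, 1.64 and 1.82% in obesity-prone libraries, 1.19, 1.36 and 1.23% in obesity-resistant libraries, and 1.15, 1.47, 1.21 and 1.36% in control libraries, with the same separation.

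Cx3cr1 showed the opposite order. It took 0.180, 0.104 and 0.102% in obesity-prone libraries, 0.480, 0.266 and 0.373% in obesity-resistant libraries, and 0.355, 0.692, 0.713 and 0.425% in control libraries. Its share was lower in every obesity-prone library than in any other. Timd4, on few counts, did likewise, with 0.0448 ± 0.0245% in obesity-prone, 0.114 ± 0.0091% in obesity-resistant and 0.165 ± 0.0781% in control libraries. Cd163 took 2.94 ± 1.03% in obesity-prone, 3.95 ± 0.538% in obesity-resistant and 5.09 ± 1.74% in control libraries, and these ranges overlapped. On the FPKM scale the ratio of Cd163 to Cd68 was 0.175, 0.310 and 0.108 in obesity-prone libraries, 0.304, 0.203 and 0.312 in obesity-resistant libraries, and 0.910, 0.290, 0.788 and 0.215 in control libraries, so that control libraries 1 and 3 stood apart from the rest. These shares and ratios are descriptions and were not tested.

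Adgre1 (F4/80, the classical mouse macrophage antigen, at chr17:57358581-57483529) gave a different picture in counts and in FPKM. In counts it had 35.1, 27.1 and 58.5 CPM in obesity-prone libraries, 26.6, 26.4 and 24.1 CPM in obesity-resistant libraries, and 24.4, 27.4, 27.5 and 34.6 CPM in control libraries (log2 fold change of obesity-prone against control libraries 0.50 ± 0.22, edgeR adjusted p = 0.17). On the deposited FPKM scale it had 107, 95.8 and 103 in obesity-prone libraries, 112, 106 and 97.4 in obesity-resistant libraries, and 97.1, 104, 113 and 135 in control libraries. The obesity-prone excess was thus absent per length, and with limma on log2(FPKM + 0.5) the log2 fold change was -0.13.

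FPKM is a count divided by depth and by an effective length that RSEM estimates for each library. Dividing counts by FPKM and depth gave an effective length for Adgre1 of 342, 280 and 590 bases in obesity-prone libraries, 235, 261 and 249 bases in obesity-resistant libraries, and 245, 251, 230 and 262 bases in control libraries. The longest was 2.56 times the shortest. The GENCODE annotation of mouse holds Adgre1 transcripts of 342, 402, 917, 3124 and 3238 bases, and every effective length was nearer to the short ones. It was longest in obesity-prone library 3. The FPKM level of Adgre1 is therefore not comparable with that of other members, and whether a short transcript was present or its reads came from elsewhere was not tested.

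**Figure D4:**
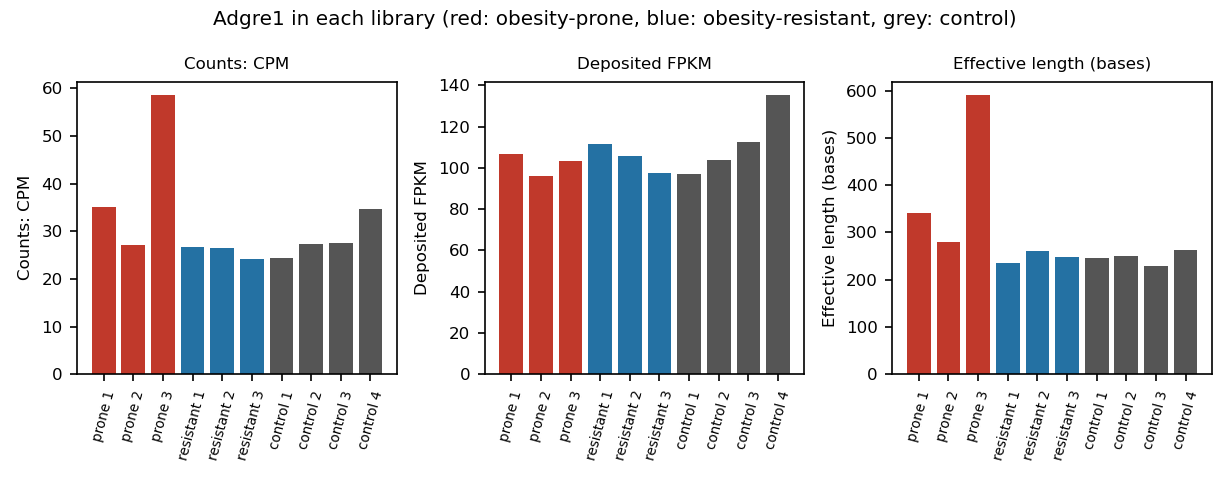
Adgre1 in each library as CPM (left), as deposited FPKM (middle) and as the effective length in bases obtained from counts and FPKM (right); bars start at 0 and are coloured by group. Obesity-prone library 3 was highest in CPM (58.5) and in effective length (590 bases) but not in FPKM (103).

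The other members can be ordered per length. Averaged over each group, Lyz2 had the most FPKM after Adgre1 in obesity-prone libraries (78.4 ± 39.9), followed by C1qb (43.1 ± 26.2), C1qa (31.1 ± 16.2), C1qc (30.5 ± 16.4), Cd68 (21.1 ± 13.0), Fcer1g (20.7 ± 12.04) and Tyrobp (20.4 ± 10.9). From C1qb on, neighbours in this order differed by less than the SD of either. At the low end stood Cx3cr1 (0.233 ± 0.127) and Timd4 (0.153 ± 0.0814). Effective lengths varied far less than for Adgre1 in most members, with 1.67-fold for Timd4 and 1.30-fold for Cybb as the next largest.

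Genes around the members were read from lists by pathway, whose counts stand beside 7.0% of all genes called and 50.6% above 0 in obesity-prone against control libraries. Of the CSF1 and growth factor genes, 1 of 12 tested rose in obesity-prone against control libraries, with a median log2 fold change of 0.55. Csf1, the ligand of Csf1r, had 34.9, 23.6 and 37.2 CPM in obesity-prone and 15.9, 17.8, 13.3 and 21.5 CPM in control libraries, with no overlap (log2 fold change 0.90 ± 0.21, edgeR adjusted p = 0.034).

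The list of ITAM and kinase signalling around Tyrobp and Fcer1g held receptors, some of them inhibitory, as well as kinases. All 14 tested genes in it were above 0, beside 50.6% of all genes, with a median of 1.17. The 1 that rose is a share close to the 7.0% of all genes called. It was Sirpa, the inhibitory receptor for CD47, at 94.5 ± 12.7 CPM in obesity-prone and 29.0 ± 12.1 CPM in control libraries (log2 fold change 1.70, edgeR adjusted p = 0.014). The other NADPH oxidase genes had a median of 0.999, with 0 of 7 called by edgeR. At an unadjusted p below 0.05, 4 of these genes were higher, beside 14.9% of all genes. They hold partners of Cybb and Ncf1 as well as the separate oxidases Nox4, Duox1 and Duox2. Of 14 tested complement genes outside C1q, 10 were above 0, with a median of 0.78. At an unadjusted p below 0.05, 5 were higher, beside 14.9% of all genes, and 2 were lower, beside 13.2%. After edgeR adjustment 0 rose and 1 fell. That was Cfd (adipsin, made by adipocytes), at 140 ± 20.2 CPM in obesity-prone and 725 ± 356 CPM in control libraries (log2 fold change -2.38, edgeR adjusted p = 0.0092).

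All 12 monocyte chemokine genes were above 0 (median 1.19), and 2 rose. Ccl9 had a log2 fold change of 1.93 (edgeR adjusted p = 0.045). Cx3cl1 (fractalkine, the ligand of Cx3cr1) had 26.6, 17.7 and 19.8 CPM in obesity-prone libraries, against 6.40, 9.62, 6.16 and 15.8 CPM in control libraries (log2 fold change 1.17, edgeR adjusted p = 0.049), while its receptor was not higher in obesity-prone libraries. Of 12 toll-like receptor genes (median 0.77), 1 rose, a share close to the 7.0% of all genes called. It was the RNA sensor Tlr8, at 7.02 ± 3.95 CPM in obesity-prone and 2.05 ± 0.567 CPM in control libraries (edgeR adjusted p = 0.024). Of 12 genes of lipid-associated macrophages (median 1.33), 10 were above 0 and 3 rose. Gpnmb, Lgals3 and Plin2 had log2 fold changes of 2.09, 2.56 and 1.12 (edgeR adjusted p = 0.038, 0.049 and 0.031), and Plin2 also coats the lipid droplets of adipocytes. Lpl went the other way without overlap, at 3521 ± 872 CPM in obesity-prone and 5822 ± 515 CPM in control libraries (log2 fold change -0.73, edgeR adjusted p = 0.058). The summed CPM of the list, Lpl included, was 5962 to 7448 in obesity-prone and 7299 to 8486 in control libraries.

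Markers of other cells moved with the members to different degrees. Of 8 tested neutrophil and mast cell genes, 3 rose in obesity-prone libraries: S100a9, Cxcr2 and Csf3r (log2 fold change 2.61, 1.40 and 1.68). The defining neutrophil marker Ly6g was at 0 in 7 of 10 libraries, and S100a9 reached only 1.79 CPM. Of the 8 tested genes, 6 had a log2 fold change above 0. S100a8 did not, at 10.55 ± 1.29 CPM in obesity-prone and 11.81 ± 1.24 CPM in control libraries (log2 fold change -0.16, edgeR adjusted p = 0.41). The summed CPM of that list was 27.0 to 45.8 in obesity-prone, 22.3 to 27.5 in obesity-resistant and 24.8 to 31.1 in control libraries. Of T and NK cell genes, 0 of 8 tested were called by edgeR, and 1 was higher at an unadjusted p below 0.05, beside 14.9% of all genes. The list summed to 3.86 to 10.6 CPM in obesity-prone and 4.50 to 8.92 CPM in control libraries. Of 8 tested B and plasma cell genes, 5 were above 0, with a median of 0.21, and 1 fell. That was the immunoglobulin joining chain Jchain, at 0.0979 ± 0.0582 CPM in obesity-prone and 0.787 ± 0.435 CPM in control libraries (edgeR adjusted p = 0.021). Jchain was barely detected in obesity-prone libraries, at 0.0516, 0.163 and 0.0790 CPM. Dendritic cell and MHC class II genes (0 of 11 called by edgeR, 3 at an unadjusted p below 0.05, all higher, beside 14.9% of all genes) had a median of 0.33.

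Among stromal lists, 1 of 12 endothelial genes (Flt4) and 1 of 12 fibroblast and progenitor genes (Ly6a) rose, shares close to the 7.0% of all genes called, with medians of 0.44 and 0.43. Fibroblast and progenitor genes summed to 977 to 2107 CPM in obesity-prone, 732 to 864 CPM in obesity-resistant and 707 to 1195 CPM in control libraries. Brown adipocyte genes summed to 10100 to 17864 CPM in obesity-prone, 18191 to 19303 CPM in obesity-resistant and 17967 to 21031 CPM in control libraries, and of 12 of them 1, Fabp4, fell. The sum was lowest in obesity-prone library 3, where 28 members were highest.

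Red cell genes were also highest there. In obesity-prone against control libraries 8 of 8 were higher at an unadjusted p below 0.05, beside 14.9% of all genes, but 0 passed after edgeR adjustment. They summed to 4761, 2420 and 22227 CPM in obesity-prone libraries, 2549, 709 and 1739 CPM in obesity-resistant libraries, and 822, 1222, 1187 and 6163 CPM in control libraries. Control library 4, the highest control for 26 members, was thus also the highest control for red cell genes. The part of blood, of neutrophils and of the share of adipocyte RNA in the member levels was not tested. Muscle genes had 0 of 12 called by edgeR, 0 also at an unadjusted p below 0.05, and a median of -3.24. In a fit with the muscle score as a covariate 0 members were called, beside 3.32% of all genes, while the median member log2 fold change stayed at 1.04.

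**Figure D5:**
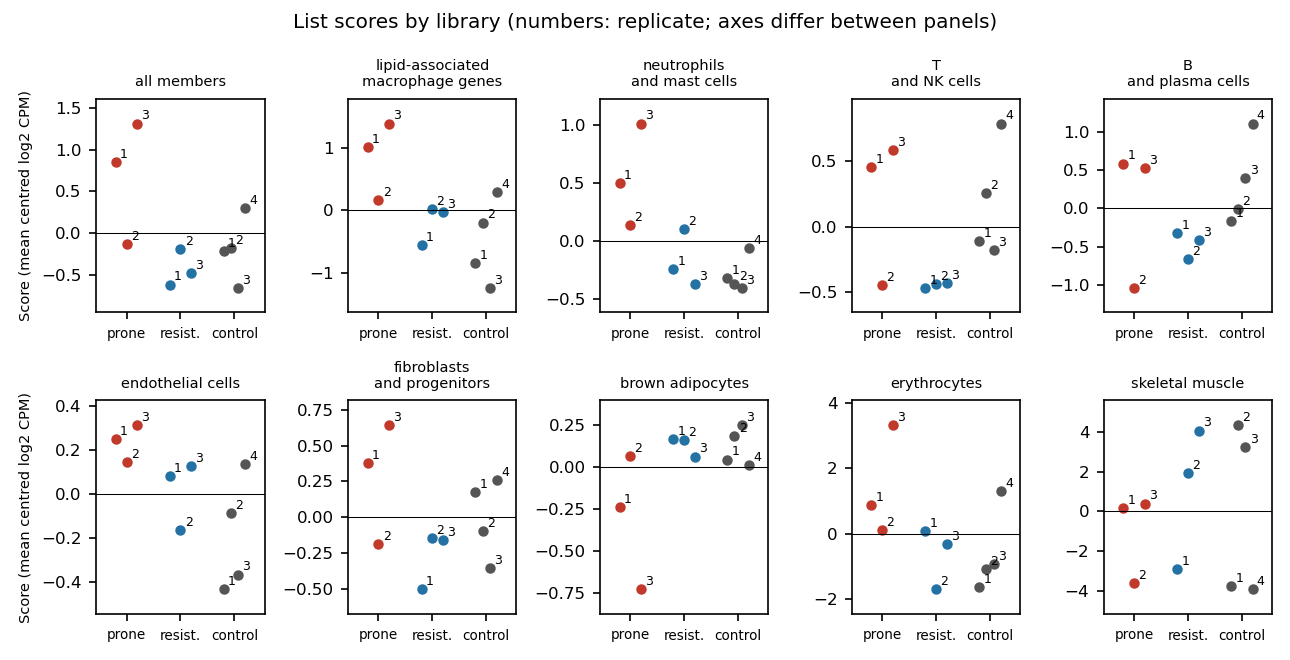
Score of 10 gene lists (the mean over genes of log2 CPM minus the gene's mean over libraries) in each library, by group, with the replicate number beside each point; the axes differ between panels. Obesity-prone library 3 was highest for the members (1.31) and for red cell genes (3.33) and lowest for brown adipocyte genes (-0.73).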

How the data were processed

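Per the labels' protocols, Bowtie2 2.2.5 aligned the reads to the sequencing company's own gene set and RSEM 1.2.12 estimated expression. HISAT2 2.0.4 and GRCm38.p6 stand in the submitters' processing notes. The authors deposited an expected count and an FPKM value per gene and library. Strand setting and annotation release are not given in the sources used here. Of the expected counts 30.4% were not whole, and all were rounded. The authors' 6 columns of group means were not used.

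edgeR 4.0.16 (R 4.3.3) fitted all 10 libraries with TMM factors, filterByExpr (minimum count 10) and a robust quasi-likelihood model of 1 coefficient per group, with 7 residual degrees of freedom. P-values were adjusted by Benjamini-Hochberg over all 19676 genes, and changed means an adjusted p below 0.05. CPM uses TMM-scaled library sizes. Alternatives were DESeq2 1.42.0, limma 3.58.1 with trend on log2 FPKM, other filters and scalings, fits of only 2 groups, a replicate block, a muscle covariate (added after seeing the data) and leaving out libraries. The fit was tested on simulated data.

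The members and the 16 other lists (199 genes named, 195 found by symbol) were chosen with earlier results of these data known. All members are named; from other lists, the genes called were named, except one result that is not reported here. Over all genes, deviations from group means correlated at 0.121 to 0.187 between resistant and control libraries of the same number, and at -0.146 to 0.206 for the other groups. A minimum of 0.1 in every pair was met only by the resistant and control libraries. The highest value, 0.206, was for obesity-prone library 3 and obesity-resistant library 3. Libraries of different number were not compared, so these correlations cannot show that the numbers pair libraries. No pair of libraries was a duplicate.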

Additional observations from a re-analysis of the deposited data

Results flagged for a closer look

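In control libraries, Ptprc was far higher in library 4 (16.01 CPM) than in the other three (7.24 to 7.99 CPM), a gap of 0.914 of the group's range. Cd14 was far higher in control library 1 (3.35 CPM) than in the others (2.22 to 2.38 CPM), a gap of 0.859 of the range. Both exceed Dixon's 95% critical value for 4 samples. Such a test marks about 1 group in 20 by chance, and 33 control groups were tested, 1 for each member.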

How the results depend on the processing

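In obesity-prone against control libraries the number of genes called was 1377, with 3138 by DESeq2, 66 when only the 2 groups were fitted, 654 with the muscle covariate, and 76 to 3040 over the fits that left out libraries. Members called were 2, with 20 by DESeq2 and 0 to 25 over the fits that left out libraries. With a replicate block they were 5 (Ptprc, Cd53, Fcgr4, Lyz2 and Mpeg1), beside 8.04% of all genes (1582 genes). Tyrobp was not among them, at an edgeR adjusted p of 0.060. A filter of 1 CPM in 3 libraries left 30 members tested and 3 called, beside 9.94% of all genes. Without a filter 0 were called, beside 2.84%, and with the muscle covariate 0, beside 3.32%. When only the 2 groups were fitted, 0 were called, beside 0.344%, and with the replicate block added 0, beside 0.0313% (6 genes). By limma with 0.1, 0.5 or 1 added to FPKM, 0 were called, beside 5.26%, 4.98% and 4.67% of all genes. Adgre1 turned to -0.13 by limma under each of these.

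In obesity-resistant against control libraries, 28 genes were called, with 1138 by DESeq2, 76 without a filter, 68 under the stricter filter, 391 when only the 2 groups were fitted, 382 with the replicate block, 1645 with the replicate block and only the 2 groups, 55 with the muscle covariate, and 3 to 2212 when libraries were left out. Members called were 0, with 1 by DESeq2 and 0 to 1 when libraries were left out; the 1 was Cd163 in both, the second time without obesity-prone library 3 and control library 4. Signs of small fold changes turned. With the replicate block, alone and with only the 2 groups, Itgam was 0.20 and 0.18, Cd53 0.25 and 0.28, Laptm5 0.080 and 0.11, Mpeg1 0.26 and 0.29, Siglec1 0.074 and 0.042, Msr1 0.11 and 0.088, and Fcer1g 0.025 in the second. By limma with 0.5, 0.1 and 1 added to FPKM, Itgam was 0.011, 0.014 and 0.0084, Mpeg1 0.079, 0.098 and 0.063, and Msr1 0.018, 0.037 and 0.010, while Cd53 was 0.00015 and 0.030 with the first 2. Leaving out libraries gave -0.40 to 0.22 for Itgam, -0.34 to 0.27 for Cd53, -0.36 to 0.10 for Laptm5, -0.18 to 0.68 for Fcgr1, -0.16 to 0.69 for Fcgr4, -0.40 to 0.027 for Fcer1g, -0.19 to 0.40 for Cd68, -0.21 to 0.26 for Mpeg1, -0.11 to 0.64 for Aif1, -0.70 to 0.086 for Siglec1 and -0.53 to 0.12 for Msr1.

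In obesity-prone against obesity-resistant libraries, 0 genes and 0 members were called, with 565 and 20 by DESeq2, and 0 to 871 and 0 to 23 when libraries were left out. The replicate block called 0 genes here, alone or with only the 2 groups. Adgre1 was -0.040 by limma under each of these. Leaving out libraries gave -0.50 to 0.19 for Cx3cr1 and -0.65 to 0.30 for Timd4. The cause of these differences was not tested. RLE and upper-quartile scaling changed no member's call or direction. Depth limits Timd4, Cx3cr1, Aif1 and Fcgr4, which had few counts, and with 3 or 4 libraries a group 1 library can decide a call.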
